A study of Homo sapiens with 6 samples.

Results

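The genes described here carry signals of the transforming growth factor beta (TGF-beta) family: the ligand genes TGFB1, TGFB2, INHBA, INHBB and BMP4, the receptor genes TGFBR1 and TGFBR2, and the signal transducer genes SMAD3, SMAD6 and SMAD7. All probes annotated to these 10 genes were taken, which gave 15 of the 29285 probes. They were measured on Illumina bead arrays in HuCCT1, a human cell line established from a cancer of the bile duct (cholangiocarcinoma). One stable derivative was labelled as overexpressing WTAP, a protein that holds the m6A writer complex of messenger RNA together, and the other, called mock, carried the empty vector. Each derivative had 3 arrays with titles ending in p4, p5 and p6, numbered 4, 5 and 6 here. Both derivatives were grown in the same medium with serum. The sources used here do not give the time in culture, the promoter of the vector or whether a derivative was a clone or a pool, nor do they say that the arrays came from separate cultures. Every p-value therefore measures only the spread between these arrays, which may be technical, and their number limits the precision.

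Ligands of this family bind pairs of type I and type II serine/threonine kinase receptors. TGF-beta and activins pass the signal mainly to SMAD2 and SMAD3, bone morphogenetic proteins (BMPs) to SMAD1, SMAD5 and SMAD9, and all of these enter the nucleus with SMAD4. SMAD6 and SMAD7 are inhibitory SMADs that are themselves induced by the pathway, and in the liver and bile ducts TGF-beta is known for growth arrest of epithelium and for matrix deposition.

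Of the 10 genes, 7 had a probe detected (detection p under 0.05 against the negative controls) on at least 3 arrays and were tested, each through its brightest probe. In the cells labelled WTAP, 4 of these rose (TGFB2, INHBB, SMAD3 and SMAD6), TGFBR2 fell, and 2 did not pass the threshold (BMP4 and SMAD7), by limma with a Benjamini-Hochberg adjusted p under 0.05 over 11586 genes. Over all tested genes 20.4% passed, 10.5% as higher and 9.91% as lower, and in 39.7% the groups did not overlap, as they did not in 5 of the 7 members. The members were chosen with results of these data known, so nothing is read from their share.

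The line labels were checked on WTAP itself. Its brightest probe had a bead signal of 1064 ± 54.1 on the arrays labelled WTAP and 1067 ± 53.0 on the mock arrays (SD, n = 3 each), and the log2 fold change was 0.06 ± 0.10 (SE, adjusted p = 0.703 by limma). The arrays thus did not show the labelled overexpression, the sources used here do not place the probe relative to the cloned part, and each direction below rests on the labels. The median bead signal of an array was 192 to 203 and 15071 to 16307 probes were detected. All 8 biliary epithelial markers (such as KRT7, KRT19 and EPCAM) were detected on all 6 arrays with 0 calls by limma and 0 at an unadjusted p under 0.05. Of markers of other cell types, 2 of 6 fibroblast markers (COL1A2 and LUM), 4 of 6 leukocyte markers (CD68, CD14, HLA-DRA and MS4A1), 1 of 6 hepatocyte markers (ALB) and 0 of 4 endothelial markers were detected on at least 3 arrays. The fibroblast genes COL3A1, DCN, PDGFRA and PDGFRB, the leukocyte genes PTPRC and CD3E, the endothelial genes CDH5 and KDR and the hepatocyte genes APOB and CYP3A4 were detected on none. Summed over 6 fibroblast markers, the bead signal was 968 to 1236 on the arrays labelled WTAP and 948 to 1071 on the mock arrays, and that of 6 leukocyte markers was 3056 to 3254 against 3110 to 3623. These sums were taken before background correction and include the markers detected on no array. Background is thus part of each sum, and a small difference in cell content could be hidden. None of the tested markers passed (limma), but LUM, the matrix proteoglycan lumican, and ALB, albumin, had an unadjusted p under 0.05 and groups that did not overlap. LUM read log2 intensities of 7.60, 8.20 and 6.84 on the arrays labelled WTAP and 6.71, 6.79 and 6.06 on the mock arrays, a log2 fold change of 1.03 ± 0.33 (SE, adjusted p = 0.0632 by limma). ALB had -0.39 ± 0.13 (SE, adjusted p = 0.0642). Their part in the results was not tested.

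The stretch of 250 bases before the most upstream RefSeq start is shown for 4 members: SMAD6 and SMAD7, the inhibitory SMADs with and without a call, and INHBB and TGFBR2, whose changes passed under all 17 processing alternatives tried. Capitals mark the palindromic SMAD-binding element GTCTAGAC, the CAGAC box that SMAD3 and SMAD4 are known to bind (searched as CAGAC or GTCTG), and GGCGCC, a GC-rich element bound by BMP-activated SMADs. Both strands were covered, and no matches overlapped in these windows.
SMAD6: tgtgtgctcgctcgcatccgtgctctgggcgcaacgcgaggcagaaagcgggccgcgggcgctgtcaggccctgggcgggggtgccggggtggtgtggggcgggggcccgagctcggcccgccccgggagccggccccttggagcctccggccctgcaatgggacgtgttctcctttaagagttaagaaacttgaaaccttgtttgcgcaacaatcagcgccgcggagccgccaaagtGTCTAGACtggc
SMAD7: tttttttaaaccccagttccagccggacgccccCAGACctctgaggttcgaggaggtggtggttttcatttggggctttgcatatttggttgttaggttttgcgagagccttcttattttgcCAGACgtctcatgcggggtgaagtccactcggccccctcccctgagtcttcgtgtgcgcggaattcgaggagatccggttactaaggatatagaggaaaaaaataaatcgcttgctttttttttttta
INHBB: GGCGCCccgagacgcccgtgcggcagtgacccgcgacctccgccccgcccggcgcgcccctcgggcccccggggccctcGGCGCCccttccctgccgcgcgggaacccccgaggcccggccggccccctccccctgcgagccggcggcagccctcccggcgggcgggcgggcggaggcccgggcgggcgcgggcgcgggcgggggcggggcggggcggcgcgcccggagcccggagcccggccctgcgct
TGFBR2: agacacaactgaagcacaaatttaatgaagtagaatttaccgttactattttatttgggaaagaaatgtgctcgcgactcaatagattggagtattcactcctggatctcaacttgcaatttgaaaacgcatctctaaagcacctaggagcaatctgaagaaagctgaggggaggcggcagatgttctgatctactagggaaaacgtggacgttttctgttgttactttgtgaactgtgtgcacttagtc
These are RefSeq sequences of GRCh38.p14, for SMAD6 chr15:66701986-66702235 (plus strand), SMAD7 chr18:48950966-48951215 (minus strand), INHBB chr2:120345886-120346135 (plus strand) and TGFBR2 chr3:30606106-30606355 (plus strand). SMAD6 held GTCTAGAC 1 time, beginning 12 bases before its start, and 0.183% of the 27305 windows of this kind held that element. For SMAD7, with 3 starts, GTCTAGAC was found in the 250 bases before none of them. Its window shown held CAGAC at 2 places, and 37.9% of windows held CAGAC. Bases further upstream or after a start were not searched, so a missing match says nothing about elements there. INHBB held GGCGCC 2 times, as did the window before the most upstream of the 5 starts of SMAD3. That element was found in 4381 of the 27305 windows, and TGFB2 held CAGAC 2 times. The TGFBR2 window, before the most upstream of its 2 starts, held none of these elements. The GC content ran from 40.8% in TGFBR2 to 89.6% in INHBB, with a median of 57.6% over all windows. A match describes the sequence and no binding was measured.

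Among the ligands, INHBB showed the larger of 2 rises. It encodes the beta B subunit of activins and inhibins, secreted dimers of this family. Its probe (ILMN_1685714) read bead signals of 505, 542 and 405 on arrays 4, 5 and 6 labelled WTAP, against 230, 276 and 256 on the mock arrays of those numbers. All 3 arrays labelled WTAP lay above all mock arrays. After background correction and quantile normalization the log2 intensity was 8.48 ± 0.26 on the arrays labelled WTAP and 6.95 ± 0.19 on the mock arrays (SD, n = 3 each), a 2.89-fold rise with a log2 fold change of 1.53 ± 0.16 (SE, limma adjusted p = 0.000928). The size depended on the background step, as the log2 fold change was 0.95 without background correction and 0.93 in the authors' deposited processed table, with the call kept in both. INHBB lies on chromosome 2, where the 50 nearest tested genes had a median log2 fold change of 0.01, and all 50 lay below INHBB.

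TGFB2, which encodes the isoform TGF-beta 2, rose by a smaller amount. Bead signals of its probe (ILMN_1812526) were 836, 817 and 630 on the arrays labelled WTAP and 605, 592 and 484 on the mock arrays. The lowest array labelled WTAP and the highest mock array, 630 and 605, lay close to each other. The log2 intensity averaged 9.32 ± 0.25 on the arrays labelled WTAP and 8.71 ± 0.22 on the mock arrays (SD, n = 3 each), a 1.53-fold rise (log2 fold change 0.61 ± 0.17, SE, limma adjusted p = 0.0348). Without WTAP array 4 TGFB2 did not pass (adjusted p = 0.1104), nor without WTAP array 5 (0.1000), mock array 5 (0.0705) or mock array 6 (0.0984, limma, over 17 alternatives 0.00825 to 0.2405). The 50 tested genes nearest to TGFB2 on chromosome 1 had a median of 0.26, with 13 higher and 1 lower, and after subtraction of such neighbours the log2 fold change of TGFB2 was 0.33 (adjusted p = 0.2405).

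BMP4, a ligand of BMP receptors, had 3 detected probes, and none passed the threshold. The brightest (ILMN_1740900) read log2 intensities of 11.84, 12.10 and 11.03 on arrays 4, 5 and 6 labelled WTAP, against 11.89, 11.71 and 11.68 on the mock arrays. The groups overlapped, and array 6 labelled WTAP lay below all others. Its log2 fold change was -0.10 ± 0.25 (SE, limma adjusted p = 0.813), with a 95% interval of the fold of 0.628 to 1.39. Without WTAP array 6 the value was 0.21 (adjusted p = 0.311, over 17 alternatives 0.311 to 0.951). The dimmest probe (ILMN_1693749) had groups that did not overlap, with bead signals of 223, 252 and 193 on the arrays labelled WTAP and 313, 260 and 261 on the mock arrays. It had a log2 fold change of -0.65 ± 0.23 (SE, adjusted p = 0.0783 over 15830 detected probes), and the third probe (ILMN_1709734) had 0.03 ± 0.19 (SE, adjusted p = 0.921). Without WTAP array 5 the dimmest probe passed, with a fall of 0.85 on the log2 scale (limma adjusted p = 0.0461, over 15 alternatives 0.0461 to 0.204). Among all detected probes 19.1% passed, 9.63% as higher and 9.44% as lower, and in 38.2% the groups did not overlap.

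The other 2 ligand genes were too dim to test. TGFB1, which encodes the main TGF-beta isoform of many tissues, had 1 probe, detected on 0 of 6 arrays, with bead signals of 150, 146 and 165 on the arrays labelled WTAP and 122, 134 and 153 on the mock arrays. INHBA, which encodes the beta A subunit of activin A, was detected on 2 mock arrays only. Its bead signals were 152, 172 and 170 on the arrays labelled WTAP, with no detection, against 198, 196 and 182 on the mock arrays. The groups of INHBA did not overlap, but a bound set by the dimmest detected probes gave only at least 1.01-fold lower, and it was too dim for the test. With no filter on dim probes INHBA had -0.50 on the log2 scale (adjusted p = 0.0897 by limma) and TGFB1 one of 0.24 (adjusted p = 0.371).

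TGFBR2, the type II receptor that binds TGF-beta and activates the type I receptor, fell. Its brightest probe (ILMN_2384241) read bead signals of 4480, 3956 and 3745 on arrays 4, 5 and 6 labelled WTAP, against 10921, 10197 and 8551 on the mock arrays. Every array labelled WTAP lay below every mock array. The log2 intensity was 11.99 ± 0.13 on the arrays labelled WTAP and 13.21 ± 0.19 on the mock arrays (SD, n = 3 each), a 2.33-fold fall with a log2 fold change of -1.22 ± 0.13 (SE, limma adjusted p = 0.000989). A further probe (ILMN_1726245) fell by the same 1.22 on the log2 scale (SE 0.14, adjusted p = 0.00111 over all detected probes), and its signals were 3912, 4030 and 3391 on the arrays labelled WTAP and 9938, 9655 and 8019 on the mock arrays. The third TGFBR2 probe (ILMN_1744862) was detected on 1 mock array only, with signals of 133 to 154 on the arrays labelled WTAP and 143 to 213 on the mock arrays. As an array reads the RNA of a whole culture, fewer cells with the transcript and less of it per cell cannot be told apart. On chromosome 3 the 50 nearest tested genes had a median of 0.04, and TGFBR2 had the lowest log2 fold change among them. TGFBR1, the type I partner kinase, had 1 probe detected on 0 of 6 arrays, with signals of 158, 156 and 123 on the arrays labelled WTAP and 142, 143 and 145 on the mock arrays.

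**Figure D1:**
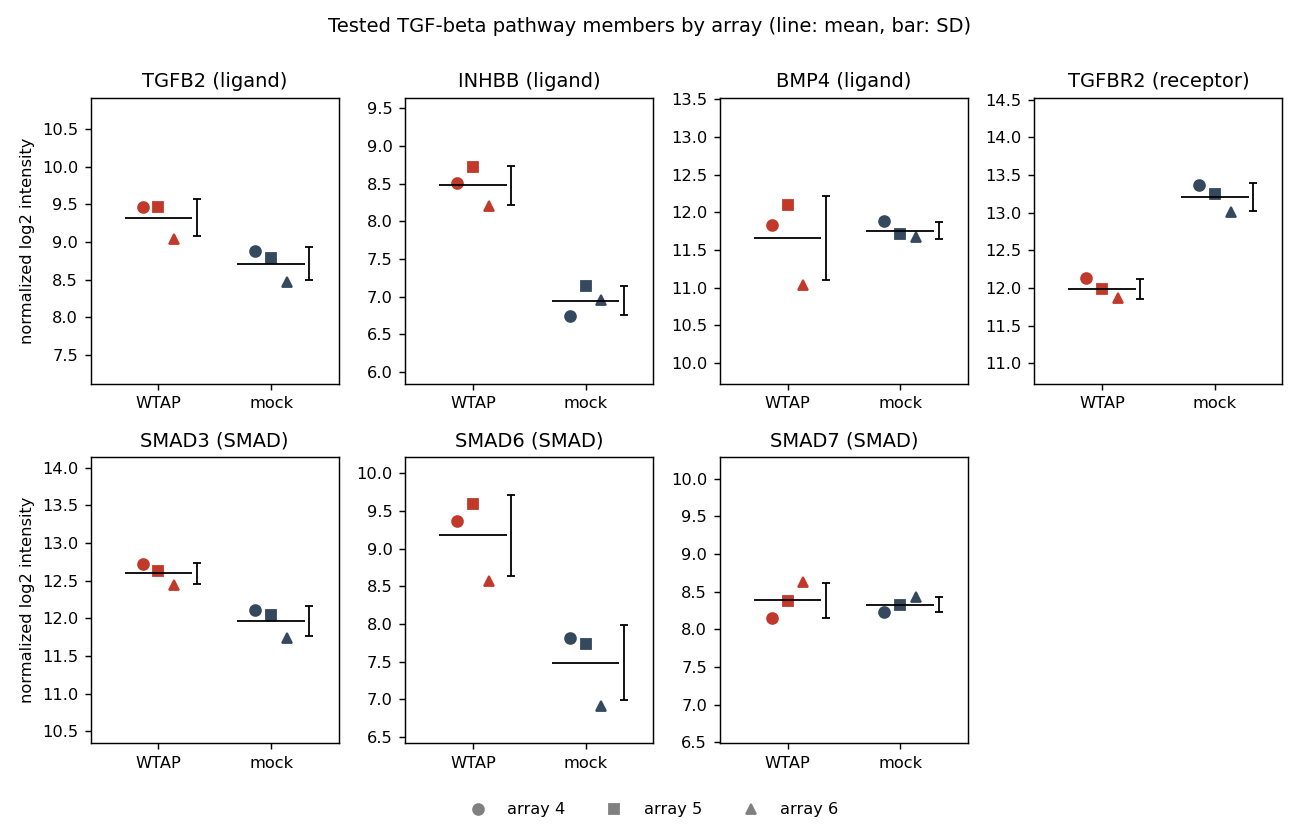
Normalized log2 intensity of the 7 tested members on each array, with the arrays labelled WTAP on the left of each panel and the mock arrays on the right; marker shapes give the array number, lines the mean and bars the SD, and all panels span the same height. The groups lie apart for TGFB2, INHBB, TGFBR2, SMAD3 and SMAD6 and overlap for BMP4 and SMAD7.

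SMAD6, which blocks signalling chiefly from BMP receptors, rose 3.22-fold. Bead signals of its probe (ILMN_1767068) were 790, 874 and 486 on arrays 4, 5 and 6 labelled WTAP and 351, 352 and 253 on the mock arrays. The groups did not overlap, but within each group array 6 stood well below the other 2. The log2 intensity was 9.18 ± 0.54 on the arrays labelled WTAP and 7.49 ± 0.50 on the mock arrays (SD, n = 3 each), with a 95% interval of the fold of 1.97 to 5.29 (log2 fold change 1.69 ± 0.31, SE, limma adjusted p = 0.00801). Its window above holds GTCTAGAC, and a part of that element in the rise was not tested.

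SMAD3, the SMAD that carries TGF-beta and activin signals to DNA, rose 1.55-fold. Its probe (ILMN_1682738) read bead signals of 6860, 6143 and 5509 on the arrays labelled WTAP, against 4723, 4592 and 3619 on the mock arrays. No array labelled WTAP lay within the range of the mock arrays. On the log2 scale it averaged 12.60 ± 0.14 on the arrays labelled WTAP and 11.97 ± 0.20 on the mock arrays (SD, n = 3 each), a difference of 0.63 ± 0.14 (SE, limma adjusted p = 0.0159). SMAD3 missed the threshold when WTAP array 4 was left out (adjusted p = 0.0635) and after subtraction of neighbouring genes (0.188, over 17 alternatives 0.000799 to 0.188).

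SMAD7, the inhibitory SMAD that acts on TGF-beta and BMP receptors alike, had 2 detected probes and no call. The brighter one (ILMN_2203891) read 8.15, 8.37 and 8.62 on the log2 scale on the arrays labelled WTAP and 8.23, 8.33 and 8.43 on the mock arrays. The mock values lay within the range of the arrays labelled WTAP, with a log2 fold change of 0.05 ± 0.14 (SE, limma adjusted p = 0.823) and a 95% interval of the fold of 0.829 to 1.30. The other probe (ILMN_2203896) had a log2 fold change of 0.25 ± 0.16 (SE, adjusted p = 0.332 over all detected probes). Array 6 had the lowest value of its group for TGFB2, BMP4 (brightest probe), TGFBR2, SMAD3 and SMAD6 in both groups. For SMAD7 the 2 probes differed, as array 6 was the highest of both groups on ILMN_2203891 and the lowest of both on ILMN_2203896. The sources used here do not say what the array number marks.

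**Figure D2:**
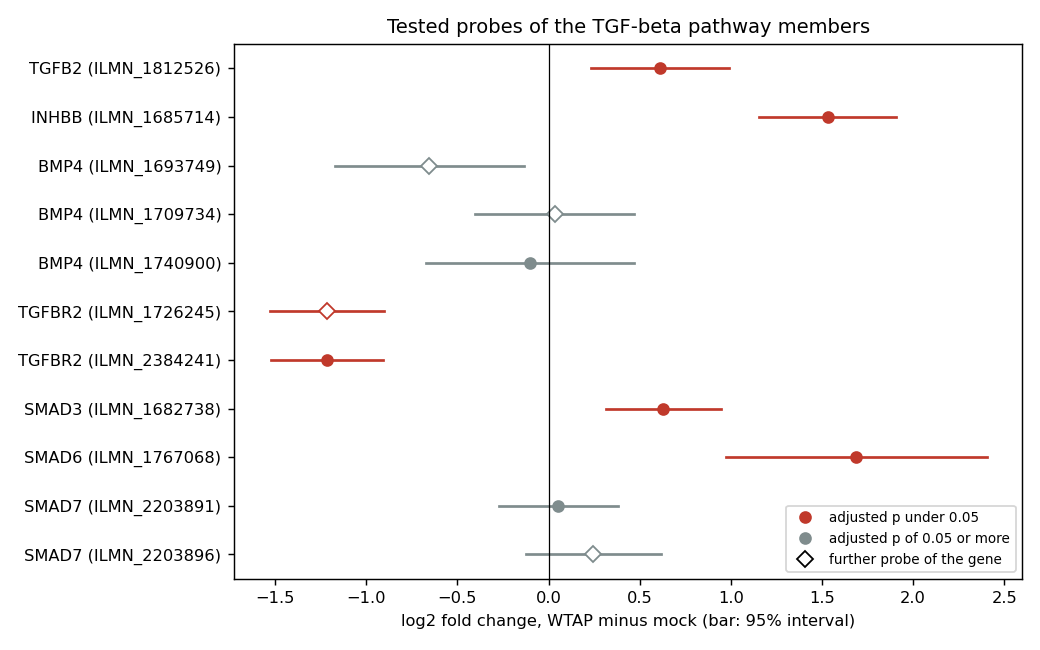
Log2 fold change (arrays labelled WTAP minus mock arrays) of the 11 tested probes of the members, with 95% intervals; filled circles are the probes tested for their gene, open diamonds further probes tested among all detected probes, and red marks an adjusted p under 0.05. Both TGFBR2 probes lie at -1.22, whereas the 3 BMP4 probes spread over -0.65 to 0.03.

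SMAD6 and SMAD3 are neighbours on chromosome 15, with 0 tested genes between them, in a stretch where many genes were higher in the cells labelled WTAP. Of the 50 tested genes nearest to SMAD3, 19 rose and 2 fell, and their median log2 fold change was 0.30. Of the 50 nearest to SMAD6, 20 rose and 2 fell (median 0.31). Several genes beside SMAD3 had values like its own: AAGAB (0.69), MAP2K5 (0.62) and PIAS1 (0.63), which lie close to it, were named after their values were seen. RNU6-1, between MAP2K5 and PIAS1, had -0.46 (limma adjusted p = 0.0227). Of the 50 neighbours of SMAD3, 43 lay below it. SMAD6 exceeded 49 of its 50 neighbours, and its call held after their subtraction. Copy number was not measured, and its part in these values was not tested.

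**Figure D3:**
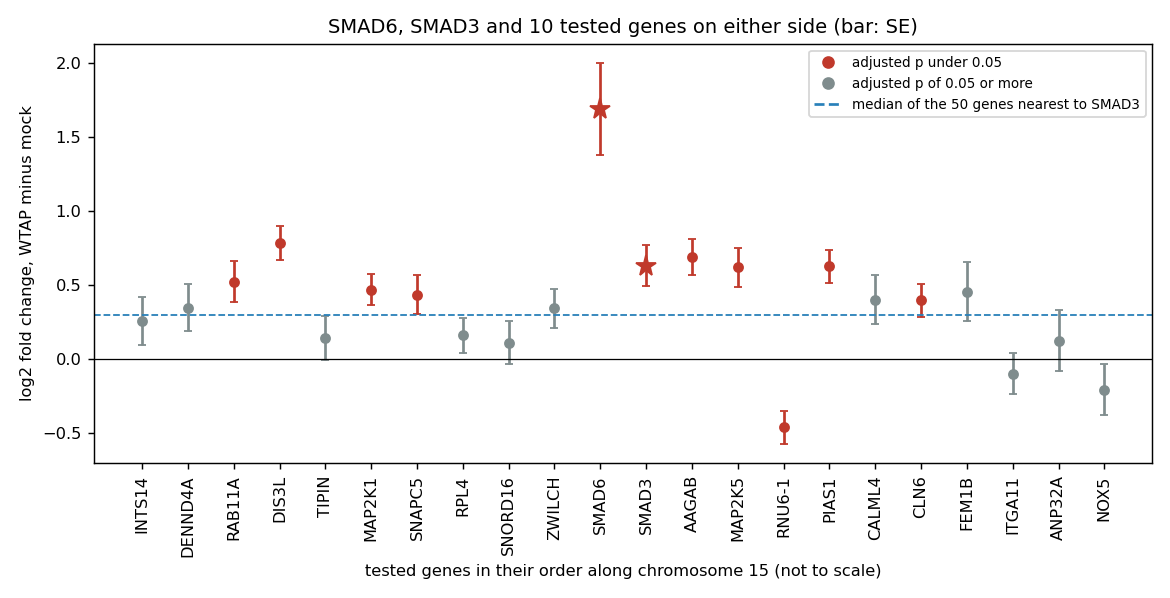
Log2 fold change (arrays labelled WTAP minus mock arrays, bars give the SE) of SMAD6, SMAD3 (stars) and the 10 tested genes on either side, in their order along chromosome 15; red marks an adjusted p under 0.05 and the dashed line the median of the 50 genes nearest to SMAD3 (0.30). SMAD6 at 1.69 stands above the genes drawn, and SMAD3 at 0.63 lies among AAGAB, MAP2K5 and PIAS1, while RNU6-1 in the same stretch lies at -0.46.

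Genes of the same pathway outside the 10 members were counted in 8 lists by role, with 89 of 146 listed genes tested. In all, 12 rose and 9 fell, 23.6% against 20.4% of all genes tested. These counts include COL4A1, which was undetected on every mock array, and BMPER and NOG, undetected on every array labelled WTAP. Each of them entered the test only through the other group, so no direction is read from them. The lists' medians are given beside that of all tested genes, a log2 fold change of 0.0029.

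Other ligands were mostly undetected: 6 of 28 were tested, with a median of -0.14. Only TGFB3, the third TGF-beta isoform, passed. Its log2 intensity was 6.33, 5.89 and 5.64 on the arrays labelled WTAP, with detection on 1 of them, and 6.98, 7.45 and 6.82 on the mock arrays. The groups did not overlap, and TGFB3 fell by 1.13 (SE 0.22, limma adjusted p = 0.00922), opposite to TGFB2. The size depended on the background step, with -0.50 without background correction and -0.48 in the authors' deposited processed table, and the call was kept in both.

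Of 9 tested receptors and coreceptors besides TGFBR1 and TGFBR2, 1 rose and 1 fell (median -0.23). TGFBR3, betaglycan, a coreceptor that presents TGF-beta 2 and also binds inhibins, read 10.72, 10.55 and 10.47 on the arrays labelled WTAP and 9.40, 9.03 and 8.73 on the mock arrays. With no overlap, its log2 fold change was 1.53 ± 0.17 (SE, limma adjusted p = 0.00118), opposite to TGFBR2. RGMB, a BMP coreceptor of the repulsive guidance family, fell by 0.75 (SE 0.14, adjusted p = 0.00896), and its second probe fell by 0.70. BAMBI, a decoy receptor named after its values were seen, had -0.60 on the log2 scale (adjusted p = 0.0783 by limma). After subtraction of its neighbours on chromosome 10 that value was 0.0069 (over 17 alternatives limma adjusted p = 0.0284 to 0.985). BAMBI did not pass in 12 of the 17. It passed without background correction (0.0293), with an offset of 50 (0.0490) and in the authors' deposited processed table (0.0284). With a trended and robust variance (0.0311) and without WTAP array 5 (0.0417) it also passed. ACVR1, a type I receptor for BMPs also named after its values were seen, had -0.31 (limma adjusted p = 0.0886).

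Of the other SMADs, 4 were tested by limma and 0 passed, with 1 at an unadjusted p under 0.05 and a median of 0.08. That 1 was SMAD1, named after its values were seen, with a log2 fold change of -0.44 ± 0.19 (SE, limma adjusted p = 0.137). Its groups overlapped, and it was detected on 3 mock arrays and 1 array labelled WTAP. SMAD4, the common partner, had a log2 fold change of 0.16 ± 0.16 (SE, limma adjusted p = 0.522, named after its values were seen). A difference between SMAD3 and these SMADs was not tested.

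Among 9 tested activators and binding proteins outside the cell, 2 rose and 1 fell (median 0.02), but without WTAP array 4 the count of calls was 0. BGN, the matrix proteoglycan biglycan, rose by 0.87 and ITGAV, the integrin chain that takes part in freeing latent TGF-beta, by 0.83. THBS1, thrombospondin 1, an activator of latent TGF-beta, fell by 0.50. Without WTAP array 4 their adjusted p was 0.0609, 0.0525 and 0.0503, and BGN was also lost without mock array 4 (0.0505) or mock array 5 (0.0526, limma; over 16 alternatives BGN had 0.00334 to 0.0609, and over 17 ITGAV had 0.00100 to 0.0525 and THBS1 0.000243 to 0.0503).

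Of 10 tested extracellular antagonists 1 rose and 3 fell (median 0.01). FST, follistatin, which binds activins and blocks them, read 12.78, 12.93 and 12.57 on the arrays labelled WTAP and 14.02, 14.20 and 13.97 on the mock arrays. It fell without overlap by 1.30 on the log2 scale (SE 0.13, limma adjusted p = 0.000728), and a second probe fell by 1.22. The activin proteins themselves were not measured. BMPER and NOG, antagonists of BMPs, were detected on all mock arrays and on 0 arrays labelled WTAP, and were at least 1.36-fold and at least 1.13-fold lower on the background-corrected scale (limma adjusted p = 0.00954 and 0.0208). Their log2 fold changes were -0.33 and -0.23 without background correction, and -0.31 and -0.22 in the authors' deposited processed table. Both entered the test only through the mock arrays, so that their calls, 2 of the 3 falls of this list, are given as a description. NOG missed the threshold when WTAP array 4 was left out (0.0753), without background correction (0.0765), in the authors' deposited processed table (0.0851) and with a trended variance (0.0831, over 13 alternatives 0.0107 to 0.0851). FSTL3, a relative of follistatin, rose by 0.50 (adjusted p = 0.0338), a call lost with no filter on dim probes (0.0512), with the array number as a block (0.0557) and without WTAP array 4 or 5 or mock array 4, 5 or 6 (0.108, 0.0994, 0.0947, 0.0964 and 0.0507, limma, over 17 alternatives 0.00747 to 0.108). The list's count of calls was 1 without any single mock array and 2 without WTAP array 4, and BMPER and NOG were not tested without a mock array.

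Of 21 tested regulators inside the cell 2 fell and 19 had no call (median 0.0047). SKI, a corepressor that binds SMADs, fell by 0.65 (limma adjusted p = 0.0244), and without mock array 5 or 6 its call was lost (0.0590 and 0.0767, over 17 alternatives 0.0160 to 0.0767). STRAP, which binds TGF-beta receptors and inhibitory SMADs, fell by 0.50 (adjusted p = 0.0241). That call was lost without WTAP array 4 or 5 or mock array 4 or 5 (0.0808, 0.0718, 0.0732 and 0.0693) and after subtraction of its chromosome 12 neighbours (0.280, limma, over 17 alternatives 0.00178 to 0.280). Without mock array 5 the count for this list was 0.

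Target genes of the family were grouped by the branch they are known for. Of 21 tested TGF-beta target genes, 6 rose and 1 fell (median 0.21), and the count of calls was 11 without background correction, 11 in the authors' deposited processed table and 4 without WTAP array 4. Over all genes tested 10.5% rose and 9.91% fell. Of the fibroblast markers, LUM had a log2 fold change of 1.03 and COL1A2 one of 0.12, without a call (adjusted p = 0.0632 and 0.751 by limma), and the other 4 were undetected on every array; their part in the values of the target genes was not tested. COL4A1, a basement membrane collagen chain, was detected on all arrays labelled WTAP and on 0 mock arrays. On the background-corrected scale it lay at least 3.34-fold higher (adjusted p = 7.44e-05 by limma), while its log2 fold change was 1.22 without background correction and 1.18 in the authors' deposited processed table. COL4A1 entered the test only through the arrays labelled WTAP and was not tested when 1 of them was left out. Its call, 1 of the 6 rises of this list, is given as a description. TAGLN, the actin-binding transgelin, rose by 2.44 (2.76 on its second probe), and LOX, which cross-links collagen, rose by 1.34. CDKN1A, the cyclin-dependent kinase inhibitor p21, fell by 1.13, with log2 intensities of 11.61, 11.57 and 12.52 on the arrays labelled WTAP and 12.83, 13.00 and 13.28 on the mock arrays. Array 6 labelled WTAP lay nearest to the mock arrays. The CDKN1A call (limma adjusted p = 0.0171) was lost without WTAP array 4 or 5 or mock array 6 (0.0678, 0.0536 and 0.0580, over 17 alternatives 0.00141 to 0.0678). Rises of COL1A1 (0.74), the early response gene JUNB (0.61) and KLF10 (0.54), named after their values were seen, completed the calls, and that of KLF10 was lost in 8 of 17 alternatives (limma adjusted p 0.0225 to 0.246), among them without WTAP array 4 or 6 (0.0757 and 0.0540) or mock array 4, 5 or 6 (0.0788, 0.107 and 0.0963). The 3 KLF10 probes disagreed, as the other 2 had 0.88 and -0.04 on the log2 scale. TGFBI, a matrix protein named for its induction by TGF-beta and also named after its values were seen, had 0.21 on the log2 scale (adjusted p = 0.187 by limma). Other targets without a call that had an unadjusted p under 0.05 (limma) lay on both sides. CDKN2B (-0.71), TSC22D1 (-0.37) and FN1 (-0.29) were lower, and BHLHE40 (0.51) and SNAI2 (0.37) higher. FN1 was detected on the mock arrays only.

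Of 9 tested BMP target genes, 2 rose and 7 had no call, with a median of 0.45. That median is the value of HEY1, detected on 2 arrays labelled WTAP and 1 mock array. MSX1 (-0.16), TBX3 (0.04) and RUNX2 (0.04) were detected on all arrays, DLX3 (0.62) and MSX2 (-0.28) not on all. These genes were named after their values were seen. ID2 and ID3 encode inhibitors of DNA binding, helix-loop-helix proteins that are early BMP targets, as SMAD6 is. ID3 read 11.15, 11.87 and 11.49 on arrays 4, 5 and 6 labelled WTAP and 9.94, 10.34 and 10.60 on the mock arrays, a 2.32-fold rise (log2 fold change 1.21 ± 0.22, SE, limma adjusted p = 0.00762). ID2 read 10.83, 11.56 and 10.60 on the arrays labelled WTAP and 9.92, 9.82 and 9.80 on the mock arrays, a 2.21-fold rise (1.15 ± 0.23, SE, adjusted p = 0.0108), and its second probe rose by 1.2. For both genes the groups did not overlap.

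ID1, named after its values were seen, had log2 intensities of 12.37, 12.78 and 11.44 on the arrays labelled WTAP and 11.32, 11.55 and 11.09 on the mock arrays. Array 6 labelled WTAP fell within the mock range, and the log2 fold change of 0.87 ± 0.31 (SE) did not pass (limma adjusted p = 0.0815). A second, dimmer ID1 probe rose by 1.34 (SE 0.36, adjusted p = 0.0349 over all detected probes). ID1 passed without WTAP array 6, at 1.25 (limma adjusted p = 0.00528), and with the array number as a block (0.0250). It also passed without background correction (0.0207), with an offset of 50 (0.0454), in the authors' deposited processed table (0.0198) and with the mean of its probes (0.0377). In the other 11 of 17 alternatives it did not pass (over all 17, 0.00528 to 0.202). Without WTAP array 6 the list had 4 calls. Array 6 was the lowest of the arrays labelled WTAP in SMAD6, ID1, ID2 and BMP4, whereas in ID3 array 4 was the lowest of both groups.

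**Figure D4:**
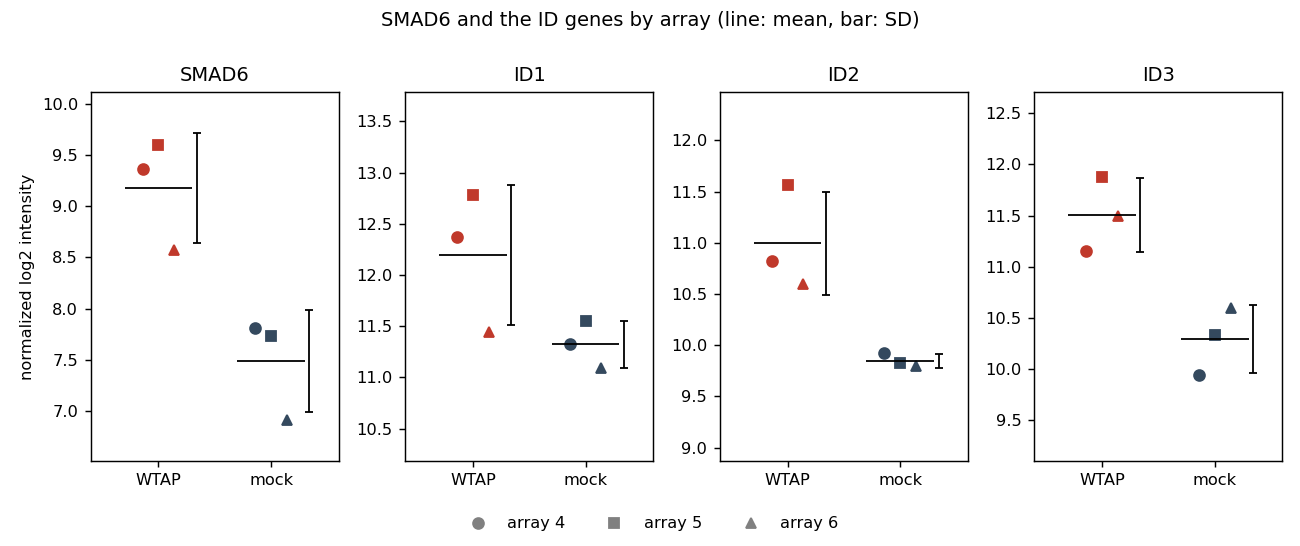
Normalized log2 intensity of SMAD6, ID1, ID2 and ID3 on each array, with the arrays labelled WTAP on the left and the mock arrays on the right of each panel; marker shapes give the array number, lines the mean and bars the SD. All arrays labelled WTAP lie above all mock arrays for SMAD6, ID2 and ID3, while for ID1 array 6 labelled WTAP (11.44) lies within the mock values of 11.09 to 11.55.

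**Figure D5:**
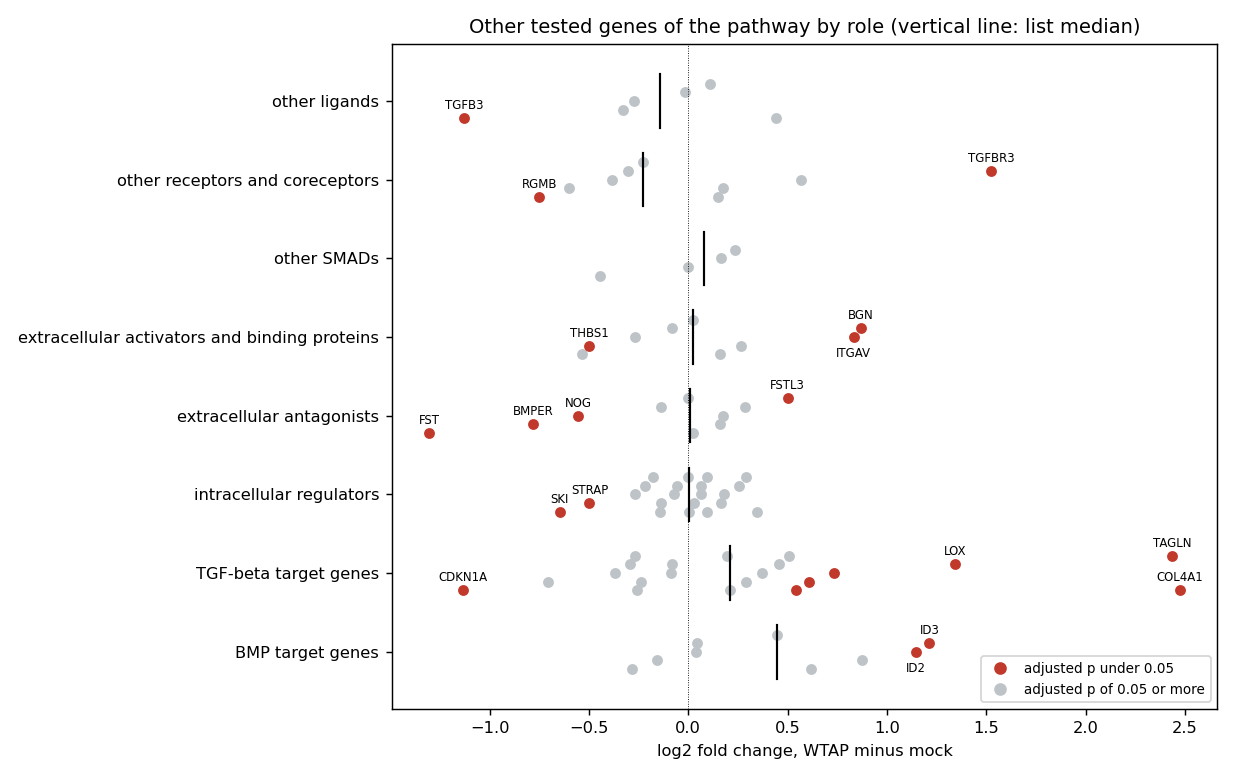
Fitted log2 fold change (arrays labelled WTAP minus mock arrays) of the 89 tested pathway genes outside the 10 members, by role; red marks an adjusted p under 0.05, vertical lines the list medians, and up to 4 called genes of a list are named. COL4A1 was undetected on the mock arrays and BMPER and NOG on the arrays labelled WTAP, so their fitted values depend on the offset. Each of them entered the test only through the group where it was detected, so no direction is read from them. Of the other calls, FST lies below 0 and FSTL3 above it among the antagonists. SKI and STRAP lie below 0, as does CDKN1A alone among the called TGF-beta target genes.

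For each member with a call, the 2 genes with the highest Pearson correlation over the 6 arrays were listed as a description. Over 6 arrays in 2 groups, and with 11586 genes to choose from, such values can be high for any gene that separates the groups, and they carry no test. For TGFBR2 they were PGCKA1 (0.998) and GPC4 (0.997), for SMAD6 APOC1 (0.998) and LOXL4 (0.997), for INHBB NSF (0.998) and DUSP10 (0.997), for SMAD3 SLC5A3 (0.997) and LGALS12 (0.997), and for TGFB2 ZBTB46 (0.997) and SFTA2 (0.997). PGCKA1 and GPC4 fell with TGFBR2, and of the others all but SFTA2 (limma adjusted p = 0.0574) rose. PGCKA1 was detected on only 3 of the 6 arrays, the fewest that the filter allows, so its fall is given as a description. ZBTB46 and SLC5A3 were detected on 5 arrays and the other listed genes on all 6.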

How the data were processed

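RNA of 6 HuCCT1 samples was hybridised to single-colour bead arrays, 3 labelled WTAP and 3 mock by their titles. The main input was the non-normalized linear intensity per probe that the authors deposited. The same deposited table gives a detection p-value for each probe on each array, and the submitters' processing notes name BeadStudio 3.3. Their deposited processed intensity table, quantile normalized from its values, was used as an alternative. The sources used here do not state any background treatment before deposit. Probes were named through the platform annotation, with 27819 of 27988 symbols brought up to date through gene identifiers in RefSeq (GRCh38.p14), which also gave chromosomes and gene order.

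All 29377 probes entered neqc of limma 3.58.1 in R 4.3.3 (normexp, offset 16, quantile, log2), and 92 without a row in the processed table were left out of tests. Probes detected (p under 0.05) on at least 3 arrays were kept (15830), and for each of 11586 genes the probe with the highest mean was tested with lmFit and eBayes, with Benjamini-Hochberg adjustment over all genes and a threshold of 0.05. Further probes were tested among all detected probes, and the fit was tested on simulated data. The offset understates changes of dim genes. A gene undetected on all arrays of a group is given a lower bound, the mean of the other group against the mean of the higher of its own value and the lowest value among detected probes of each array.

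The text names all 10 members, of each list up to 4 genes with the largest called change, and for called members the 2 genes most correlated; others are marked. Members and lists were chosen with earlier results of these data known. Arrays of the same number deviated together (their deviations correlated across genes at 0.12, 0.21 and 0.23 for numbers 4, 5 and 6, and differing numbers at -0.20 to 0.02), so a fit with the number as a block was an alternative. Its values are printed where it changes the call of a member or of a named pathway gene. The other alternatives were no background correction, an offset of 50, median scaling, no filter and detection on all 6 arrays, a trended and robust variance, the mean of a gene's probes, all probes, subtraction of the median deviation of the 50 nearest tested genes, and leaving out each array.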

Additional observations from a re-analysis of the deposited data

How the results depend on the processing

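Under the 17 alternatives INHBB, TGFBR2 and SMAD6 kept their direction and call, with log2 fold changes of 0.93 to 1.67, -1.33 to -1.14 and 1.18 to 1.99. Subtraction of neighbouring genes left 3 of the 5 member calls, with TGFB2 at 0.33 and SMAD3 at 0.31, lowered the count of genes that rose to 810 of 11534 and that of called intracellular regulators to 1. With no filter on dim probes TGFB2, at 0.61, had an adjusted p of 0.0554 (limma), as 19432 genes were tested. Called TGF-beta target genes numbered 11 in the deposited processed table and also 11 with the background left uncorrected; with detection on all 6 arrays 0 other ligands and 2 antagonists were called, as only 4 and 6 were tested. With the array number as a replicate block 2584 genes changed. Among the members and pathway genes named, the block changed the calls of FSTL3 and ID1 only. FSTL3 stood at 0.50 (limma adjusted p = 0.0557) and ID1 at 0.87 (adjusted p = 0.0250). Calls of the cell type markers, such as LUM, under the alternatives are not given here. Leaving out single arrays gave 1349 to 2246 changed genes (1349 without WTAP array 4; 650 to 1116 higher and 657 to 1130 lower), 3 to 5 changed members, log2 fold changes of 0.49 to 0.75 for TGFB2, 0.52 to 0.70 for SMAD3, -0.32 to 0.21 for BMP4 and -0.067 to 0.17 for SMAD7, and counts of calls of 1 to 2 other ligands, 0 to 1 other SMADs, 0 to 4 activators, 1 to 4 antagonists, 0 to 2 intracellular regulators, 4 to 7 TGF-beta targets and 2 to 4 BMP targets. Values without a call that changed sign were those of the BMP4 probe ILMN_1709734 (-0.0033 with median scaling, -0.01 without WTAP array 4, -0.14 without WTAP array 5, -0.0062 without mock array 4; -0.14 to 0.25 over single arrays left out), BMP4 (0.21) and SMAD7 (-0.067) without WTAP array 6, SMAD4 (-0.011, range -0.011 to 0.29) without mock array 6, and BAMBI (0.0069) with neighbours subtracted. Apart from fewer genes or arrays tested, the cause was not tested. Probes at the level of the negative controls (TGFB1, TGFBR1 and, on the arrays labelled WTAP, INHBA) limit what can be said of those genes.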
